A study of Mus musculus with 10 samples.

Results

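Naive mouse embryonic stem cells (ESC) were set against mouse embryo fibroblasts (MEF) by poly-A RNA sequencing, to describe what the naive pluripotent state has and lacks beside a differentiated mesenchymal cell. The ESC side held 2 libraries, 1 labelled wild type haploid and 1 labelled wild type diploid, and the MEF side held 1 library labelled wild type diploid. These 3 libraries were chosen by their labels out of 10 in the series, all of strain 129SV; the other 7 were epiblast stem cells (EpiSC) and epiblast-like cells (EpiLC) of wild-type or p53-knockout label. The labels name no passage, medium, feeder layer, embryonic stage or tissue for the ESC and MEF, and do not say that libraries came from separate cultures.

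ESC are grown from the inner cell mass of the blastocyst and can form every tissue of the body. In mouse they rest in a naive state, held by the transcription factors Pou5f1 (OCT4), Sox2 and Nanog together with Esrrb, Klf factors, Tfcp2l1 and Zfp42 (REX1), under the cytokine LIF. Fibroblasts are mesenchymal cells that build connective tissue: they secrete collagens and other matrix, carry growth factor receptors such as those for PDGF, and keep the Hox expression of their place in the body.

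Of the 4 marker genes, the 3 of ESC matched the labels, and the fibroblast marker was high in MEF and also present in haploid ESC. Pou5f1 (ENSMUSG00000024406, chromosome 17, 35506018 to 35510772, mm10) had 371 CPM in haploid ESC and 902 CPM in diploid ESC, and no count in MEF. CPM are counts-per-million scaled with TMM factors. Esrrb, an orphan nuclear receptor of the naive network (ENSMUSG00000021255, chromosome 12, 86361117 to 86521628), had 351 and 760 CPM in haploid and diploid ESC and no count in MEF. Zfp42, a zinc finger protein used as a naive marker (ENSMUSG00000051176, chromosome 8, 43295063 to 43306980), had 178 and 555 CPM in haploid and diploid ESC and no count in MEF. Both ESC libraries thus held all 3 genes, and the MEF library held none of them above the 0.193 CPM that a count of 0 allows there (3 counts). Col1a1, the main chain of collagen I (ENSMUSG00000001506, chromosome 11, 94936224 to 94953042), had 585 CPM in haploid ESC and 1.73 CPM in diploid ESC, against 24743 CPM in MEF. It was far below MEF in both ESC libraries, but the haploid ESC library lay well above the diploid one.

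Promoter windows of 3 of the genes that separate the cell types most are printed first, because they hold the octamer that OCT4 is known to bind, or a GC box. They are RefSeq sequences of build GRCm38.p6, from 250 bases before to 50 bases after a transcript start, in the direction of the gene. Capitals mark the motif. The Zfp42 window (chr8:43306960-43307259, minus strand) holds the octamer ATTTGCAT 186 bases before the start, the Pou5f1 window (chr17:35505782-35506081, plus strand) a GC box GGGCGG 45 bases before it, and the Col3a1 window (chr1:45311288-45311587, plus strand) the octamer on the other strand 148 bases before it.
Zfp42: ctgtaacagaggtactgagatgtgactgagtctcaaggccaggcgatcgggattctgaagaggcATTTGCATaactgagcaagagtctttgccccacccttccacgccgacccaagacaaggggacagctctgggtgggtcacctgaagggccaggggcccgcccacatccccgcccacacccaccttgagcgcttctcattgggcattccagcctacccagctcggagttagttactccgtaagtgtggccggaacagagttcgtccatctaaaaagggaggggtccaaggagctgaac
Pou5f1: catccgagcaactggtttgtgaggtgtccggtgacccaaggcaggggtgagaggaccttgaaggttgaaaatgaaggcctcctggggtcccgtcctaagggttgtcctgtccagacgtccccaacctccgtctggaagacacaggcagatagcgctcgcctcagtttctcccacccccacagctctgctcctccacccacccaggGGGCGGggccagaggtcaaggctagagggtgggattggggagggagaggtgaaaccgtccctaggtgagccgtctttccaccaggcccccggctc
Col3a1: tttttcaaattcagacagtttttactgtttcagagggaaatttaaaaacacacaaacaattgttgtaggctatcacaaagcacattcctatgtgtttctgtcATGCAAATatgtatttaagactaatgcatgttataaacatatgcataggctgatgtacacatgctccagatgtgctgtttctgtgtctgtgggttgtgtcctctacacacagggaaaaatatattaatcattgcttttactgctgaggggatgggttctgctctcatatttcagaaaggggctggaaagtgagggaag
The octamer, searched on both strands, stood in 1.74% of all 32851 windows of the table and in 1.38% of windows of protein-coding genes tested. The GC box stood in 35.7% of all windows and in 58.0% of windows of protein-coding genes tested. The Zfp42 window also holds a GC box, which is not marked. The windows of an ESC gene and of a fibroblast collagen both held the octamer.

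The ESC libraries differed in fibroblast genes. Among the 128 genes with at least 50 CPM in MEF and at most 3 counts in diploid ESC, a choice that fixes diploid ESC near 0 and does not use haploid ESC, the level in haploid ESC was a median of 1.20% of the MEF level, with a 5th percentile of 0.0219% and a 95th percentile of 13.6%. Only 6 of the 128 had no count in haploid ESC. The same median was 1.32% to 6.48% in the 5 EpiSC libraries and 0.0798% and 0.580% in the 2 EpiLC libraries. Whether these counts come from fibroblast RNA in the cultures or from the pluripotent cells was not tested. Collagen genes took 0.2204% of counts in haploid ESC, 0.0438% in diploid ESC and 7.19% in MEF. Total counts were 17803421, 15899032 and 18160992, and no 2 libraries agreed within sampling noise. Counts of called list members are therefore given for both ESC libraries and again with either left out.

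**Figure D1:**
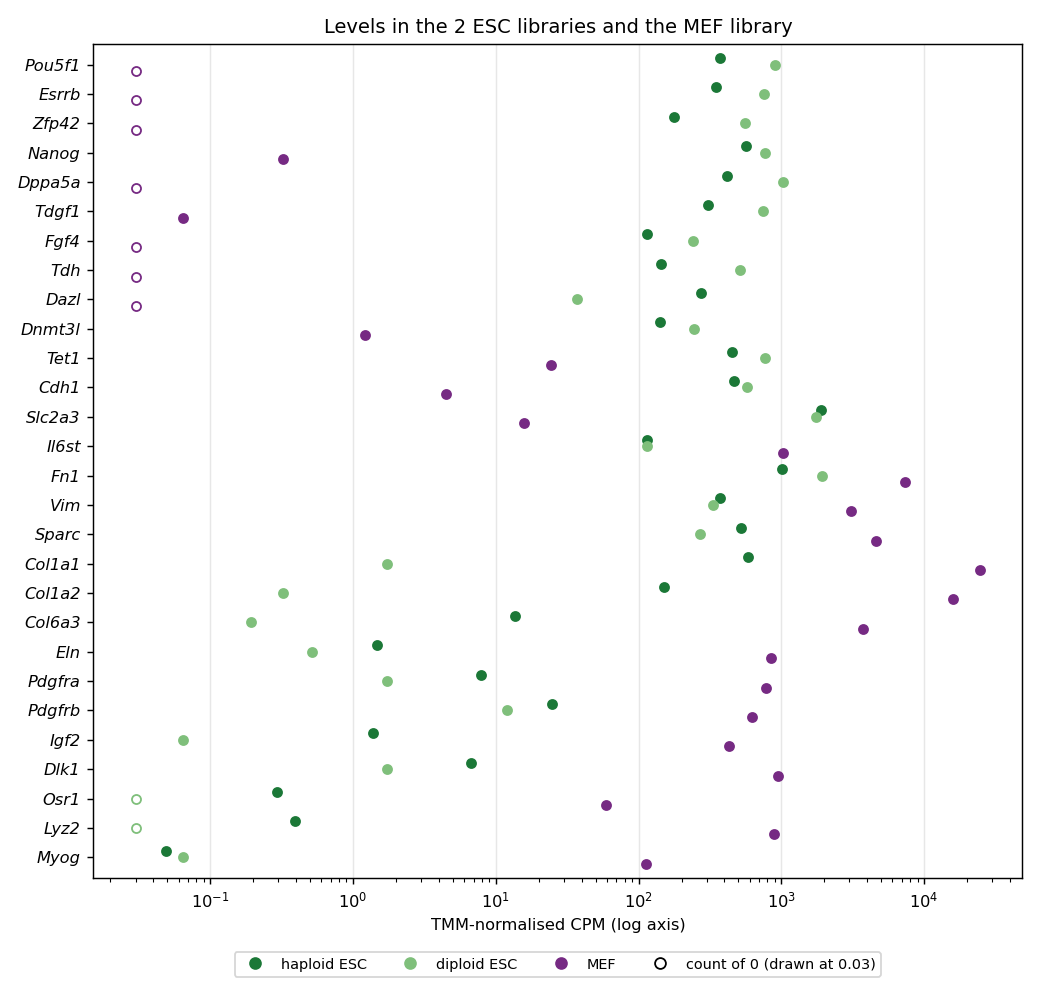
TMM-normalised CPM (log axis) of 28 genes in haploid ESC (dark green), diploid ESC (light green) and MEF (purple), 1 point per library, with counts of 0 as open points at 0.03. The ESC genes at the top are separated from MEF in both ESC libraries, whereas for collagens the haploid ESC points lie between diploid ESC and MEF.

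Across all features 21104 genes were tested with edgeR's quasi-likelihood test, and 4500 of them (21.3%) differed between ESC and MEF at an adjusted p under 0.05. ESC were higher in 1976 genes (9.36% of those tested) and lower in 2524 (12%). The median log2 fold change over all genes tested was 0.22, and the lists below are read beside these figures. By the fitted log2 fold change, 864 of the called genes were at least 16-fold higher in ESC and 1011 at least 16-fold lower. Where 1 side had no count, the fitted value was used and not a bound, so some of these genes may differ by less. For all 4500 genes both ESC libraries lay on the same side of MEF. Among the lower genes, 1768 of 2524 had less in diploid than in haploid ESC, and among the higher genes 619 of 1976 had. In either direction haploid ESC thus lay nearer to MEF than diploid ESC for most called genes. Because MEF had 1 library, it was assumed to vary like the others, and the spread came from all 10 libraries. The fit held a mean for each cell type and no term for ploidy or p53 label. The ESC pair differs in ploidy, the EpiSC libraries in ploidy and p53 label, and the EpiLC pair in p53 label. By their titles, the wild-type EpiSC libraries also differ in sex. The p-values thus rest on the spread of these samples, which may be technical and includes ploidy, p53 label and, in EpiSC, sex. With the 3 libraries fitted alone 680 genes passed, and without diploid ESC 2475.

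**Figure D2:**
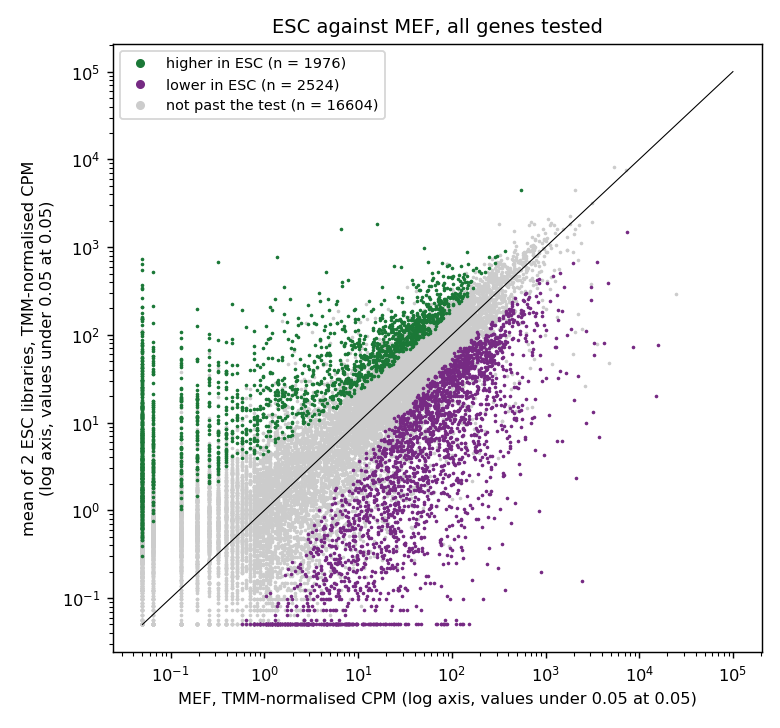
Mean TMM-normalised CPM of the 2 ESC libraries against CPM in MEF for the 21104 genes tested, both axes log, with 1976 genes higher in ESC in green, 2524 lower in purple and the others in grey. Genes of each colour reach the edge of the plot where the other cell type had no counts.

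Naive pluripotency genes rose in ESC in 11 of 18 members tested, with none lower and a median log2 fold change of 10.21, or 7.54 with genes at 0 in MEF set to their bound. The count was 12 without haploid ESC and 9 without diploid ESC. Dppa5a, an RNA-binding protein of early embryos, had 418 and 1033 CPM in haploid and diploid ESC and no count in MEF, which puts ESC at least 11.88 higher on the log2 scale (edgeR adjusted p = 0.00155). The bounds for Pou5f1, Esrrb and Zfp42 were 11.69, 11.49 and 10.89 (adjusted p = 0.000423, 0.00930 and 0.00414). Nanog, the homeobox factor of the core network, had 566 and 772 CPM in haploid and diploid ESC against 0.321 CPM in MEF, a log2 fold change of 10.99 ± 1.40 (SE; adjusted p = 0.00203). Tfcp2l1, a LIF target, had 501 and 1054 CPM against 1.35 CPM in MEF (9.16 ± 2.15, adjusted p = 0.0165). In each of these genes both ESC libraries were far above MEF, and haploid ESC had less than diploid ESC.

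The Klf factors were present in both cell types. Klf4 had 81.4 and 206 CPM in haploid and diploid ESC against 38.8 CPM in MEF (log2 fold change 1.89 ± 1.03, adjusted p = 0.206), Klf2 88.9 and 222 against 33.1 CPM (2.23 ± 1.77, adjusted p = 0.375), and Klf5 237 and 225 against 39.4 CPM (2.55 ± 1.04, adjusted p = 0.103). Tbx3, a T-box factor of the same network, had 279 and 350 against 41.9 CPM (2.91 ± 2.06, adjusted p = 0.320). All 4 were higher in both ESC libraries than in MEF, and none passed the test. MEF held 33.1 to 41.9 CPM of them.

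General pluripotency genes rose in 15 of 16 members, with a median of 10.57, or 8.20 with bounds, and in 15 and 14 members without haploid and without diploid ESC. Sall4, a zinc finger partner of Pou5f1, had 155 and 258 CPM in haploid and diploid ESC and no count in MEF (at least 10.07 higher on the log2 scale, adjusted p = 0.000423). L1td1, an RNA-binding protein, had 154 and 536 CPM and none in MEF (bound 10.81, adjusted p = 0.000556). Lin28a, which blocks maturation of let-7 microRNAs, had 117 and 185 CPM and none in MEF (bound 9.61, adjusted p = 0.000701). Sox2, the DNA-binding partner of OCT4, was also detected in MEF, with 334 and 462 CPM in haploid and diploid ESC against 6.74 CPM in MEF, a log2 fold change of 5.88 ± 0.70 (adjusted p = 0.00152). The member that missed the threshold was Foxd3, a forkhead factor, with 9.78 and 45.0 CPM against 4.37 CPM in MEF (adjusted p = 0.151).

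Genes of the primed epiblast, the later pluripotent state, moved both ways: 5 of 10 rose and 2 fell, with a median of 2.17 (4 and 2 without haploid ESC, 4 and 1 without diploid ESC). Otx2, a homeobox factor that drives the exit from naive pluripotency, had 16.3 and 10.3 CPM in haploid and diploid ESC and no count in MEF (bound 6.11, adjusted p = 0.00218). Eomes, a T-box factor, had 29.0 and 11.5 CPM against 0.193 CPM in MEF (3 counts, Poisson 95% interval 0.0397 to 0.563, adjusted p = 0.00861). Fgf5, the classic primed marker, was near nothing in ESC, with 0.147 and 0.0642 CPM (3 counts and 1 count), against 2.76 CPM in MEF (adjusted p = 0.00746). Otx2 and Eomes were thus above MEF in both ESC libraries and Fgf5 below it.

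Signals that ESC secrete rose in 6 of 10 members tested, and none fell (median 8.15, 6.69 with bounds; 4 rose with either ESC library left out). Fgf4, the FGF that pushes ESC towards lineage commitment, had 114 and 242 CPM in haploid and diploid ESC and no count in MEF (bound 9.85, adjusted p = 0.00297). Nodal, a TGF-beta family ligand, had 34.3 and 74.8 CPM and none in MEF (bound 8.15, adjusted p = 0.00203). Its co-receptor Tdgf1 (Cripto) had 304 and 743 CPM against 1 count in MEF (0.0642 CPM, Poisson 95% interval 0.00163 to 0.358, adjusted p = 0.00108). Ligand and co-receptor were thus high in both ESC libraries. Spp1 (osteopontin) was abundant on both sides, with 394 and 371 CPM against 796 CPM in MEF (adjusted p = 0.5005).

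The receiving side of LIF and BMP signalling went the other way, with 1 of 13 members higher and 5 lower (median -1.43). Il6st (gp130), the signalling chain of the LIF receptor, had 115 and 114 CPM in haploid and diploid ESC against 1022 CPM in MEF, a log2 fold change of -3.15 ± 0.50 (adjusted p = 0.00396). Bmpr2, a BMP receptor, had 80.9 and 45.2 CPM against 230 CPM (-1.87 ± 0.31, adjusted p = 0.00471). The LIF-binding chain Lifr had 70.5 and 106 CPM against 132 CPM, and the effector Stat3 had 153 and 158 CPM against 418 CPM; neither passed the test (adjusted p = 0.673 and 0.225). Without haploid ESC 1 member was higher and 6 were lower, and without diploid ESC 0 and 2. Il6st and Bmpr2 were below MEF in both ESC libraries.

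Germline genes rose in 15 of 18 members (median 9.01, 7.23 with bounds; 10 without haploid ESC, 18 without diploid ESC). Dazl, a germ cell RNA-binding protein, had 275 CPM in haploid ESC and 37.1 CPM in diploid ESC, and no count in MEF (bound 9.66, adjusted p = 0.00460). Mael and Mov10l1, both of the piRNA pathway that silences transposons, had 70.8 and 90.4 CPM in haploid ESC against 13.7 and 13.8 CPM in diploid ESC, and no count in MEF (bounds 7.78 and 8.08, adjusted p = 0.00478 and 0.00967). Tdrd12, of the same pathway, had 50.7 and 57.4 CPM against 1 count in MEF (adjusted p = 0.000739). Stag3, a meiotic cohesin subunit, had 202 and 80.7 CPM against 1.73 CPM (6.34 ± 0.84, adjusted p = 0.00232). Dazl, Mael, Mov10l1 and Stag3 were each higher in haploid than in diploid ESC, and Pou5f1 and Nanog lower; with 1 library of each ploidy this was not tested. Rpl10l, an intronless copy of a ribosomal protein gene, had 128 and 162 CPM and none in MEF; it is close in sequence to its parent, so its counts are uncertain.

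The Dazl window, printed because germline promoters are known to be CpG-rich and silenced by DNA methylation, holds 28 CpG (capitals; chr17:50293571-50293870, minus strand, GRCm38.p6).
Dazl: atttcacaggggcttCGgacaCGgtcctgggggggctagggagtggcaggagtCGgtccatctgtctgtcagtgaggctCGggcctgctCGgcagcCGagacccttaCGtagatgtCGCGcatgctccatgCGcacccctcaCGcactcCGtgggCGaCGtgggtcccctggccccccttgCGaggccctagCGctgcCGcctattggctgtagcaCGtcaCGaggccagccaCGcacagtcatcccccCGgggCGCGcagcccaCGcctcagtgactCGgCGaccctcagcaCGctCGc
Its observed over expected CpG ratio was 0.796. The median over the germline list was 0.723 (20 windows, 16 of 18 genes matched), against 0.384 over all windows and 0.702 over windows of protein-coding genes tested. The 2-cell-like list had a median of 0.132 (10 windows). No methylation was measured here.

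Genes of the 2-cell-like state, which rare ESC enter, were seen at low level: 6 of 16 rose, 3 without haploid ESC and 11 without diploid ESC. Zscan4d had 25.3 and 5.72 CPM in haploid and diploid ESC and Zscan4a 24.1 and 4.62 CPM, with no count of either in MEF (bounds 6.33 and 6.22, adjusted p = 0.0274 and 0.00914). All 16 members had at most 3 counts in MEF. Zscan4 and Usp17l genes are near-identical copies, so reads could be split among them, and in bulk RNA fewer cells of a kind and less RNA per cell cannot be told apart.

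Among chromatin regulators, DNA methylation genes rose in 6 of 15 members and fell in 1 (median 1.71), and Polycomb repressive complex 2 genes rose in 6 of 12 (median 1.39). Dnmt3l, the cofactor of the de novo methyltransferases, had 140 and 244 CPM in haploid and diploid ESC against 1.22 CPM in MEF (7.29 ± 1.17, adjusted p = 0.00414). Dnmt3b, such a methyltransferase, had 230 and 255 CPM against 5.97 CPM (5.34 ± 1.08, adjusted p = 0.00960). Tet1, which oxidises methylcytosine, had 452 and 770 CPM against 24.4 CPM (4.65 ± 0.84, adjusted p = 0.00630). All 3 were higher in both ESC libraries than in MEF. Dnmt3a had 134 and 118 CPM against 181 CPM and Dnmt1, the maintenance enzyme, 340 and 601 against 249 CPM; neither passed the test (adjusted p = 0.679 and 0.119).

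Among the 6 of 12 Polycomb list members past the test, the accessory subunits Epop, Mtf2 and Jarid2 showed the widest gaps. None of the other members passed, and accessory subunits as a class were not compared with the core. Epop, an ESC-enriched subunit, had 195 and 289 CPM in haploid and diploid ESC against 3.92 CPM in MEF (5.95 ± 0.48, adjusted p = 0.000423). Mtf2 had 346 and 506 CPM against 37.5 CPM (3.51 ± 0.42, adjusted p = 0.00157) and Jarid2 353 and 341 CPM against 41.4 CPM (3.07 ± 0.40, adjusted p = 0.00218). The core subunits Suz12, Eed and Ezh2 had log2 fold changes of 2.17 ± 0.32, 1.97 ± 0.43 and 1.85 ± 0.40 (adjusted p = 0.00317, 0.0125 and 0.0122). Ezh1, the alternative catalytic subunit, had 45.4 and 39.1 CPM against 22.3 CPM (adjusted p = 0.188). Without haploid ESC 8 members of the methylation list and 6 of the Polycomb list were higher, and without diploid ESC 6 of each.

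Epithelial adhesion genes rose in 11 of 16 members, with a median of 3.96, and 9 and 14 rose without haploid and without diploid ESC. Cdh1 (E-cadherin), which holds ESC colonies together, had 466 and 572 CPM in haploid and diploid ESC against 4.50 CPM in MEF (6.85 ± 0.78, adjusted p = 0.00132). Epcam, a surface adhesion protein, had 131 and 39.1 CPM against 1.99 CPM (5.41 ± 0.77, adjusted p = 0.00296), and Ocln, of tight junctions, 3.93 and 6.62 CPM against 0.128 CPM (5.28 ± 0.85, adjusted p = 0.00414). Both ESC libraries lay above MEF in all 3. The keratin Krt8 differed between the ESC libraries instead, with 292 CPM in the haploid and 12.1 CPM in the diploid library, against 12.4 CPM in MEF (adjusted p = 0.139).

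In metabolism, 6 of 13 genes of threonine and one-carbon use rose (median 1.11; 5 with either ESC library left out). Tdh, the threonine dehydrogenase on which mouse ESC depend, had 144 and 515 CPM in haploid and diploid ESC and no count in MEF (bound 10.74, adjusted p = 0.0112). Gldc and Amt, of the glycine cleavage system, had 100.4 and 172 CPM against 2.44 CPM (5.80 ± 0.57, adjusted p = 0.000739) and 52.4 and 159 CPM against 5.01 CPM (4.40 ± 0.75, adjusted p = 0.00520). Phgdh and Psat1, of serine synthesis, had 114 and 79.1 CPM against 218 CPM and 173 and 194 CPM against 257 CPM and did not pass (adjusted p = 0.0607 and 0.507). Among glycolysis genes 5 of 19 rose, 3 with either ESC library left out. Slc2a3, a glucose transporter, had 1902 and 1740 CPM against 15.9 CPM in MEF (6.84 ± 1.18, adjusted p = 0.00530), and hexokinase Hk2 460 and 483 CPM against 80.7 CPM (2.55 ± 0.59, adjusted p = 0.0164). Ldha and Pkm, of the last steps, had 750.2 and 1055 CPM against 843 CPM and 1588 and 2891 CPM against 1811 CPM and did not pass (adjusted p = 0.939 and 0.677).

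Cell cycle genes differed modestly. Mitotic genes rose in 7 of 18 members (median 1.11; 9 without haploid ESC and 3 without diploid ESC), among them Ccnb1 with 327 and 433 CPM in haploid and diploid ESC against 103 CPM in MEF (1.88 ± 0.40, adjusted p = 0.0115) and Aurka with 137 and 155 against 45.5 CPM (1.68 ± 0.32, adjusted p = 0.00771). Of 21 G1 cyclins and CDK inhibitors 2 rose and 4 fell (3 and 5 without haploid ESC, 2 and 0 without diploid ESC). The risers were Ccne1 (cyclin E), with 111 and 198 CPM against 37.8 CPM (2.03 ± 0.42, adjusted p = 0.0102), and the phosphatase Cdc25a, with 146 and 196 against 50.7 CPM (1.76 ± 0.33, adjusted p = 0.00735). The 4 lower genes were inhibitors, Cdkn1b, Cdkn1c, Cdkn2b and Cdkn2c, and none of the 4 passed without diploid ESC (adjusted p = 0.117, 0.151, 0.0895 and 0.158). Only 2 passed without the EpiSC library haEpi1 or without either EpiLC library. The share of G1 members that rose was near the 9.36% of all genes tested that were called higher, and 12% of all were called lower. Mki67, a proliferation marker, had 339 and 306 CPM against 324 CPM (adjusted p = 0.996).

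**Figure D3:**
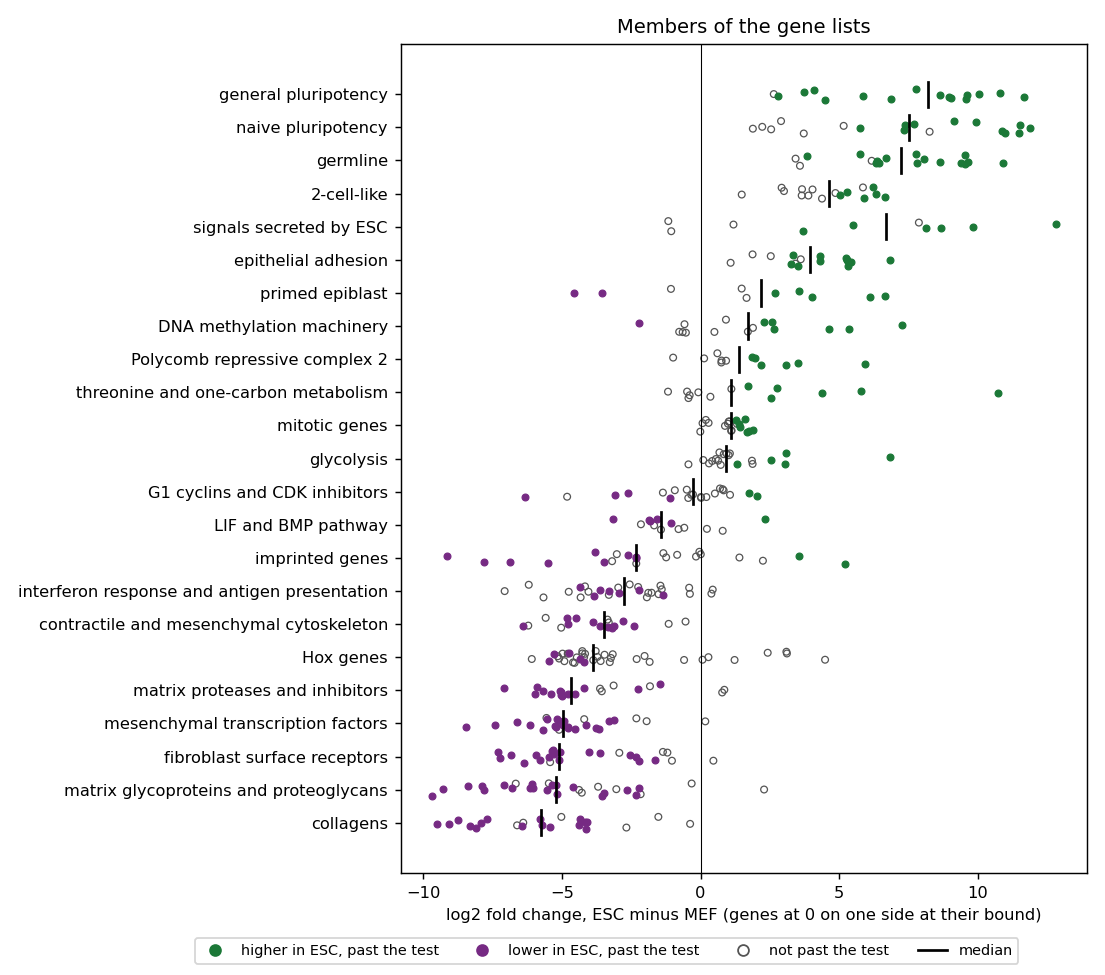
Log2 fold change of ESC over MEF for the members of each gene list, 1 point per gene, filled where past the test (green higher in ESC, purple lower) and open where not, with the median as a bar; genes at 0 on 1 side stand at their bound. Pluripotency and germline genes lie to the right of 0, and collagens, other matrix genes and fibroblast receptors to the left.

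On the fibroblast side, mesenchymal transcription factors fell in ESC in 20 of 26 members, with none higher (median -5.03, or -4.95 with bounds). The count was 20 without haploid ESC and 9 without diploid ESC. Osr1, a zinc finger factor of connective tissue, had 0.295 CPM in haploid ESC, no count in diploid ESC and 58.7 CPM in MEF (adjusted p = 0.00399). Meox2, a mesodermal homeobox factor, had 0.147 CPM (3 counts), no count and 15.0 CPM (adjusted p = 0.00839). Nfix, a nuclear factor I member, had 8.35 and 3.53 CPM in haploid and diploid ESC against 423 CPM in MEF (-6.14 ± 1.15, adjusted p = 0.00715). Prrx1, a limb and craniofacial mesenchyme factor, had 29.9 CPM in haploid ESC, no count in diploid ESC and 709 CPM in MEF (adjusted p = 0.101). All of these were below MEF in both ESC libraries, and Osr1, Meox2 and Prrx1 had no count in diploid ESC. Zeb1, an inducer of mesenchymal transition, had 29.5 and 30.2 CPM against 115 CPM and did not pass (adjusted p = 0.203).

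Collagens fell in 16 of 22 members (median -5.74), 20 without haploid ESC and 10 without diploid ESC. Col6a3, a chain of the microfibrillar collagen VI, had 13.6 and 0.193 CPM in haploid and diploid ESC (3 counts in diploid ESC) against 3747 CPM in MEF (-9.07 ± 1.78, adjusted p = 0.00853). Col14a1 had 0.786 and 0.514 CPM against 210.1 CPM (-8.31 ± 0.80, adjusted p = 0.000739) and Col15a1 0.442 and 0.128 CPM against 130.3 CPM (-8.75 ± 1.14, adjusted p = 0.00218). These 3 were low in both ESC libraries. Col3a1, whose window is printed above, had 40.5 CPM in haploid ESC, no count in diploid ESC and 14960 CPM in MEF; it passed with both ESC libraries (adjusted p = 0.0321) and not without diploid ESC (0.0665). Col1a1 did not pass with both ESC libraries (-6.40 ± 2.15, adjusted p = 0.0588), and passed with diploid ESC alone (adjusted p = 0.00608). Col4a1, of the basement membranes that ESC themselves lay down, had 170.2 and 28.4 CPM against 1686 CPM (-4.08 ± 0.85, adjusted p = 0.0103), and Col18a1, another basement membrane collagen, 227 and 297 against 340 CPM (adjusted p = 0.526).

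Other matrix genes fell in 20 of 29 members (median -5.21; 25 without haploid ESC, 15 without diploid ESC). Eln (elastin) had 1.47 and 0.514 CPM in haploid and diploid ESC against 854 CPM in MEF (-9.70 ± 0.79, adjusted p = 0.000423). Aspn, a small leucine-rich proteoglycan, had 0.884 and 0.771 CPM against 279 CPM (-8.38 ± 0.82, adjusted p = 0.000739), and Fbn2, a microfibril protein, 10.5 and 1.93 CPM against 1499 CPM (-7.90 ± 1.26, adjusted p = 0.00407). In all 3 the groups were apart by more than the gap between the ESC libraries. Sparc, a collagen-binding glycoprotein, kept a sizeable level in ESC, with 522 and 267 CPM against 4588 CPM (-3.54 ± 0.60, adjusted p = 0.00490). Of the laminin chains of early basement membrane, Lamc1 had 385 and 956 CPM against 837 CPM and Lama1 56.4 and 87.9 against 14.7 CPM, and neither passed (adjusted p = 0.694 and 0.0771).

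Thbs1 and Tnc showed the gap between the ESC libraries plainly. Thbs1 (thrombospondin) had 751 CPM in haploid ESC and 0.450 CPM in diploid ESC, against 3091 CPM in MEF, and Tnc (tenascin) 345 CPM, no count and 2239 CPM. Both were below MEF in both ESC libraries, and neither passed (adjusted p = 0.256 and 0.309).

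**Figure D4:**
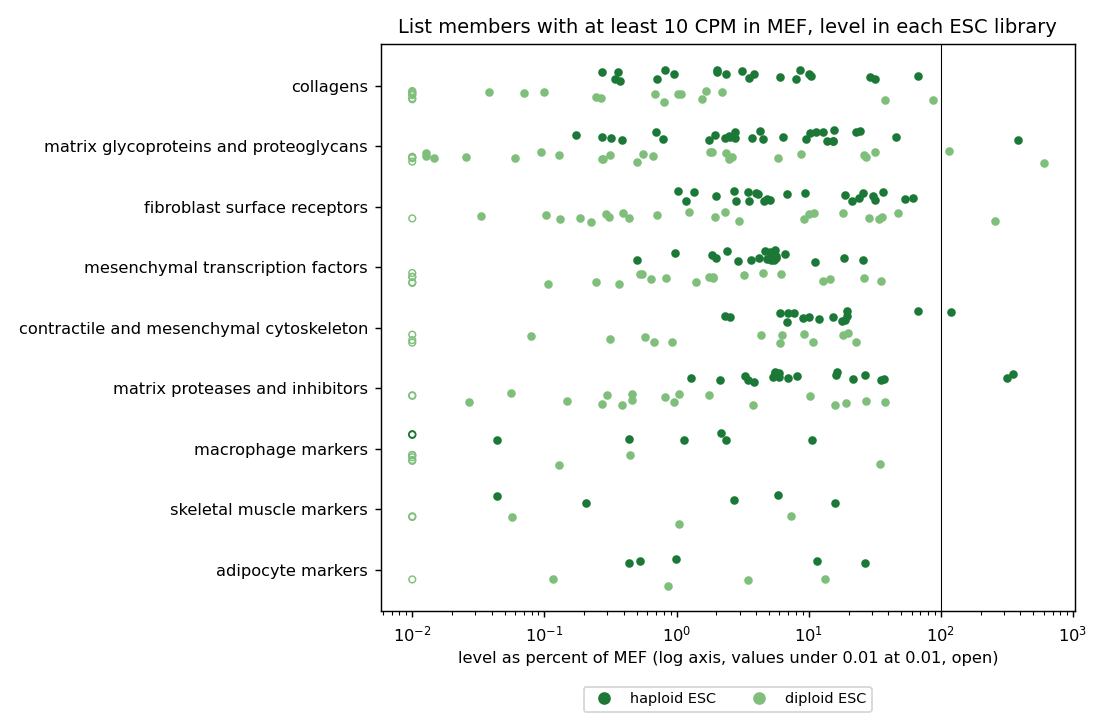
Level in haploid ESC (dark green) and diploid ESC (light green) as percent of the MEF level (log axis) for list members with at least 10 CPM in MEF, 1 point per gene, with values under 0.01% as open points at 0.01 and a line at 100%. Haploid ESC points mostly lie to the right of diploid ESC points in the fibroblast lists.

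Surface receptors of fibroblasts fell in 18 of 24 members (median -5.09; 19 without haploid ESC, 8 without diploid ESC). Pdgfrb, a PDGF receptor, had 24.7 and 12.1 CPM in haploid and diploid ESC against 620 CPM in MEF (-5.07 ± 0.51, adjusted p = 0.000808). Ednra, the endothelin receptor, had 1.47 and 0.128 CPM against 126 CPM (-7.24 ± 1.11, adjusted p = 0.00353). Pdgfra had 7.91 and 1.73 CPM against 776 CPM and passed with both ESC libraries (adjusted p = 0.0110) but not without diploid ESC (0.0618). Fgfr1, the receptor for the FGF4 that ESC make, had 197 and 155 CPM against 543 CPM (-1.63 ± 0.35, adjusted p = 0.0121, and 0.0617 without diploid ESC).

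Matrix proteases and their inhibitors fell in 14 of 20 members (median -4.66; 15 without haploid ESC, 7 without diploid ESC), and contractile and cytoskeletal genes in 11 of 18 (median -3.49; 15 and 6). Mmp2, a gelatinase, had 15.2 and 7.51 CPM in haploid and diploid ESC against 716 CPM in MEF (-5.97 ± 0.74, adjusted p = 0.00185), and Adamts2, which trims procollagen, 4.47 and 0.514 CPM against 350 CPM (-7.11 ± 1.13, adjusted p = 0.00398). Tpm2, a tropomyosin, had 29.1 and 3.47 CPM against 374 CPM (-4.51 ± 0.89, adjusted p = 0.00861), and Lmna, the lamin of stiff nuclei, 79.8 and 38.02 CPM against 879 CPM (-3.90 ± 0.72, adjusted p = 0.00679). Each was below MEF in both ESC libraries. Vim (vimentin) was still at 370 and 330 CPM against 3082 CPM in MEF; it passed with both ESC libraries (adjusted p = 0.0116) and not without diploid ESC (0.0619).

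Hox genes, which mark position along the body axis, had a median of -3.87 in ESC, and 5 of 37 tested passed, all lower, a share near the 12% of all genes tested that were called lower. This count moved with the libraries used: it was 8 without haploid ESC, 0 without diploid ESC, 3, 2, 3 and 12 without the EpiSC libraries haEpi1, haEpi5, wild-type female and wild-type male, and 17 with DESeq2. Hoxc8 had 3.88 CPM in haploid ESC, no count in diploid ESC and 43.5 CPM in MEF, and Hoxa10 had 2.11, 0.257 and 36.4 CPM (adjusted p = 0.104 and 0.0750). Posterior Hoxc13 ran the other way, with 9.33 and 10.9 CPM against 1.16 CPM (adjusted p = 0.152). At most 3 counts were found for 5 of 39 Hox genes in haploid ESC, 19 in diploid ESC and 2 in MEF.

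Interferon response and antigen presentation genes fell in 7 of 28 members (median -2.75), in 10 without haploid ESC, 1 without diploid ESC and 4 without the EpiSC library haEpi1 or the wild-type female EpiSC library. With all libraries, 20 members fell without the low-count filter and 10 with DESeq2. Ifnar1, a chain of the type I interferon receptor, had 67.0 and 47.7 CPM in haploid and diploid ESC against 147 CPM in MEF (-1.36 ± 0.27, adjusted p = 0.00946). B2m, the light chain of MHC class I, had 43.1 and 6.62 CPM against 503 CPM, and passed with both ESC libraries (adjusted p = 0.0249) but not without diploid ESC (0.0915). Mavs, an adaptor of viral RNA sensing, had 31.0 and 36.2 CPM against 24.8 CPM (adjusted p = 0.339).

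Imprinted genes mostly had less in ESC: 9 of 22 fell and 2 rose (median -2.32), with 5 lower without haploid ESC and 3 without diploid ESC. The 2 that rose were Snrpn and Phlda2, and neither passed without diploid ESC (adjusted p = 0.0551 and 0.0549). Phlda2 also did not pass without haploid ESC (adjusted p = 0.0672), without the male or the p53-knockout diploid EpiSC library, or without either EpiLC library. Dlk1, a paternally expressed Notch ligand relative, had 6.73 and 1.73 CPM in haploid and diploid ESC against 953 CPM in MEF (-7.80 ± 1.15, adjusted p = 0.00318), and Peg3, also paternally expressed, 81.5 and 104 CPM against 1299 CPM (-3.81 ± 0.55, adjusted p = 0.00301). Igf2, a fetal growth factor, had 1.38 and 0.0642 CPM (1 count in diploid ESC) against 431 CPM; it passed with both ESC libraries (adjusted p = 0.01002) and not without diploid ESC (0.0528). Meg3, the maternal transcript of the Dlk1 region, kept 391 and 511 CPM against 1143 CPM (adjusted p = 0.187). Strand was not given for the counting, so overlapping transcripts of these loci cannot be told apart. The share of members that rose was near the 9.36% of all genes tested that were called higher, and 12% were called lower. The label of the haploid ESC library does not name the parent its genome came from. Levels of genes expressed from a parental copy therefore cannot be read there as those of a genome from both parents.

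Genes seen on 1 side only were counted without a test. At least 10 CPM in both ESC libraries and at most 3 counts in MEF held for 146 genes, 125 of them protein-coding. The reverse, at least 10 CPM in MEF and at most 3 counts in both ESC libraries, held for 82 genes, 80 of them protein-coding, and it held for 405 genes when diploid ESC alone was asked for. Of those 405 genes 323 had more than 3 counts in haploid ESC. The protein-coding ESC genes were led by Dppa5a, Pou5f1, Esrrb, Tdgf1, Zfp42, L1td1, Tdh and AU018091. The MEF genes were led by Mgp (matrix Gla protein), with 153 CPM and no count in either ESC library, Agtr2 (an angiotensin receptor), with 130.4 CPM and none, and Dpt (dermatopontin, a matrix protein), with 0.0982 CPM (2 counts) in haploid ESC, none in diploid ESC and 128 CPM in MEF. Among windows of the protein-coding ESC genes, 6 of 114 (5.26%, with 96 of 125 genes matched) held the octamer. The share was 0 of 72 for the MEF genes (56 of 80 matched) and 1.38% for all protein-coding genes tested. A gene can have more than 1 window, and these shares were not tested. Among all protein-coding genes past the test the shares were close, with 25 of 1610 windows (1.55%) for genes higher in ESC and 39 of 2376 (1.64%) for genes lower.

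Called genes were also ranked per length, on the deposited FPKM scale. The ranking held protein-coding genes, without ribosomal protein genes, mitochondrially encoded genes, predicted genes and RIKEN clones. Of these, the most abundant higher gene of ESC was Dppa5a, with 696 and 1627 FPKM in haploid and diploid ESC and none in MEF. The cytosolic chaperone Hsp90aa1 had 1233 and 1041 FPKM against 143 FPKM in MEF (log2 fold change 3.03 ± 0.40, adjusted p = 0.00218). Nanog had 260.0 and 336 FPKM and Pou5f1 170.3 and 391 FPKM. Rhox5, an X-linked homeobox gene, had 392 and 143 FPKM against 0.263 FPKM in MEF (3 counts, adjusted p = 0.00609). Among lower genes the highest MEF levels were those of Lgals1 (galectin), with 229 and 33.0 FPKM in haploid and diploid ESC against 2139 FPKM in MEF (adjusted p = 0.0186, and 0.0553 without diploid ESC), of Col3a1, with 4.26 FPKM in haploid ESC and none in diploid ESC against 1568 FPKM, of Col1a2, with 12.6 and 0.0252 against 1316 FPKM (adjusted p = 0.0381; 0.0502 without diploid ESC, and 0.0510 to 0.0557 with any 1 of 4 of the 5 EpiSC libraries left out), and of Sparc, with 142 and 68.8 against 1247 FPKM. Serpinh1, the collagen chaperone, had 72.3 and 19.8 against 1131 FPKM (-4.60 ± 0.69, adjusted p = 0.00336).

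The MEF library also held markers of other cells, which stand beside the fibroblast results. Of 10 macrophage markers 7 were lower in ESC (7 without haploid ESC, 5 without diploid ESC), and their summed level was 10.2 CPM in haploid and 23.8 CPM in diploid ESC, against 1223 CPM in MEF. Lyz2 (lysozyme) had 0.393 CPM, no count and 891 CPM, and C1qa (complement) no count, no count and 81.1 CPM; Adgre1 (F4/80) was also at 0 in both ESC libraries. Of 8 skeletal muscle markers 5 were lower (4 and 3), with sums of 35.2, 12.6 and 719.6 CPM; Myog (myogenin) had 1 count in each ESC library and 112 CPM in MEF (adjusted p = 0.000739). Of 6 adipocyte markers 5 were lower (4 and 2), among them Adipoq with 0.0491 CPM (1 count), no count and 11.3 CPM (adjusted p = 0.00467). What share of the differences comes from such cells was not tested. In ESC, 2 of 9 trophoblast markers tested rose, and 2 with either ESC library left out. Of 9 extraembryonic endoderm markers 2 fell, and 2 with either ESC library left out; without diploid ESC 1 rose. The trophoblast factor Cdx2 had 4.42 and 0.578 CPM against none in MEF, while Tfap2c, which germ cells and naive ESC also use, had 110 and 92.3 CPM against 0.257 CPM (adjusted p = 0.0234).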

How the data were processed

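The authors deposited whole-number counts for each gene. Per the submitters' processing notes, reads were aligned with HISAT2 2.0.5 to mm10 and counted by featureCounts 1.5.0-p3. Libraries were poly-A selected, per the labels' protocols; no source used here gives the strand setting. The deposited FPKM equalled these counts per gene length times 1 constant per library, within 1.7e-08. Both tables hold 54532 genes.

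ESC were tested against MEF with edgeR 4.0.16 in R 4.3.3 (filterByExpr, TMM, quasi-likelihood F test, Benjamini-Hochberg adjustment over 21104 genes, threshold 0.05) with 10 libraries fitted together and a mean for each cell type. Log2 fold changes are ESC minus MEF; standard errors are their absolute value over the square root of F. Counts of 0 were taken as up to 3 counts in a library, the floor used for bounds on the log2 scale. Poisson and binomial 95% intervals, and floors, cover counting error only. DESeq2 1.42.0 and limma 3.58.1, limma on log2 of FPKM with pseudocounts of 1 and 0.1, were alternatives. The design text speaks of triplicates, and 1 library per label was used here.

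The 33 gene lists (526 of 528 entries found) and the genes to name were chosen with earlier results of these data known, so a list's direction is not independent support. Named were the 4 markers, up to 4 members per list and 8 genes per direction by change, abundance or presence on 1 side. The rankings by change, abundance and presence held protein-coding genes, without predicted genes and RIKEN clones. The abundance ranking also left out ribosomal protein and mitochondrially encoded genes. Other members given with values were chosen after their values were seen. The tests were also run on simulated counts with a fixed dispersion for all genes, equal means across cell types and changes planted in MEF alone. These settings differ from the real libraries, so the run does not show how the tests perform on them.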

Additional observations from a re-analysis of the deposited data

Results flagged for a closer look

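In 3 lists the 2 ESC libraries lay on opposite sides of MEF by their median log2 ratio, and none of these differences was tested, since each ploidy had 1 library. For the G1 cyclins and CDK inhibitors the median was -0.67 in haploid ESC and 0.11 in diploid ESC, a haploid minus diploid difference of -0.79. For the cartilage markers it was -0.77 and 0.23, a difference of -0.998. By their median level these markers were low in all 3 libraries, at 1.57, 1.54 and 2.06 CPM in haploid ESC, diploid ESC and MEF. With both ESC libraries 3 of 8 were called lower and 0 higher, beside 12% of all genes tested called lower. Only 1 was called lower without the EpiSC library haEpi1, haEpi5 or p53-knockout diploid. With any other EpiSC or EpiLC library left out, 2 or 3 were. For the extraembryonic endoderm markers it was 0.24 and -1.35, a difference of 1.58. In that last list Dab2, an endocytic adaptor, had 25.5 CPM in haploid and 4.50 CPM in diploid ESC, against 269 CPM in MEF, and Afp had 3.00 CPM in haploid ESC, no count in diploid ESC and 5.78 CPM in MEF.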

How the results depend on the processing

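None of the 141 calls named by the rule changed direction under an alternative in which the gene had an adjusted p. Some genes had none in the DESeq2 and limma fits. Called genes named after their values were seen were not part of this check. Of the 141 calls named by the rule, 141 held with DESeq2's size factors in edgeR and 141 without the low-count filter. Fitted on the ESC and MEF libraries alone, 680 genes passed (243 higher in ESC, 437 lower, 90 list members) and 75 of the 141 calls ended. On the wild-type libraries alone 725 passed (267 higher, 458 lower, 84 list members) and 79 calls ended. Both fits hold fewer libraries to measure the spread.

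Leaving out 1 library at a time gave 2475 to 4587 genes (1309 to 2087 higher, 1166 to 2503 lower) and 175 to 269 list members, against 264 with all. The lowest counts came without diploid ESC, where 47 of the 141 calls ended, against 16 without haploid ESC. DESeq2 called 5888 genes. Genes with the chosen CPM in both ESC libraries and at most 3 counts in MEF numbered 245 at a minimum of 5 CPM and 79 at 20 CPM, and 90 with no count in MEF. The reverse numbered 157, 43 and 24, and against diploid ESC alone 266 at 20 CPM and 212 with no count. The haploid ESC median percent of MEF was 2.01% at a minimum of 20 CPM and 1.41% at 100 CPM. No paired analysis was possible because the titles of the ESC and MEF libraries carry no shared replicate numbers. With 1 MEF library, a difference between fibroblasts and this culture cannot be told apart.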
